A study of Homo sapiens with 8 samples.

Results

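The plasminogen activation genes described here were 8 genes of the 27475 human genes in the deposited table, taken by their symbols: PLAU, PLAT, PLAUR, SERPINE2, SERPINB2, ANXA2, PLGRKT and VTN. RNA-seq measured them in 2 established lines of human bladder cancer, UM-UC-3 and RT112. Cells were transfected for 72 h with 100 pmol of siRNA, either siPAI-1, which pools 3 siRNAs directed at PAI-1, or Scr, which pools 3 scrambled ones as the control, and each of the 4 groups has 2 libraries. The cells were grown in RPMI 1640 or DMEM, and the labels do not say which line had which medium, so medium and line cannot be told apart. The paper describes the knock-down as independent replicate experiments, in a number larger than the libraries per group analysed here, and the labels do not tie a library to an experiment. The p-values measure the spread between these libraries, which may in part be technical. Each gene has a spread shared by the 4 groups, so intervals given for either line also carry the spread of the other.

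The plasminogen system turns plasminogen, a protein made mainly by the liver, into plasmin, a protease that degrades fibrin and matrix proteins. Urokinase and tissue-type plasminogen activator cut plasminogen, serpins trap the activators, and receptors hold both activator and substrate at the cell surface. In bladder cancer, urokinase and its receptor are known mostly for their association with invasion.

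Levels are given in TPM, a transcript level scaled for transcript length that sums to the same total in each library. Fold changes and adjusted p-values come from limma with Benjamini-Hochberg adjustment over 20274 genes, called at an adjusted p under 0.05.

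As for the libraries, the estimated depth was 29340000 to 34200000 reads. In such bulk samples, fewer cells of a type and less RNA per cell cannot be told apart. The 9 epithelial markers were all higher in RT112 with Scr, and over all 4 libraries of each line their summed level was 11229 to 12746 TPM in RT112 against 219 to 238 TPM in UM-UC-3. Of 6 mesenchymal markers, VIM, SPARC, ZEB1 and ZEB2 were lower in RT112, FN1 was higher (adjusted p = 0.0406) and CDH2 was not called. The 3 leukocyte markers summed to 272 to 279 TPM in UM-UC-3 and 14.3 to 19.7 TPM in RT112, nearly all of it CD68, a lysosomal protein, which was lower in RT112 with Scr (adjusted p = 2.03e-06), while PTPRC was at most 0.03 TPM and CD3E at most 0.20 TPM. The 3 endothelial markers summed to at most 2.35 TPM, and the 3 hepatocyte markers summed to at most 0.44 TPM. The RT112 siPAI-1 libraries differed from each other by over 0.5 on the log2 scale at 3.86% of well expressed genes, against 1.54% to 2.22% in the other groups.

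The stretches just upstream of the transcription start are shown for PLAU, PLAUR, ANXA2 and SERPINB2. Of the genes searched, these had a window with the letters of an AP-1 site or with 3 GC boxes. The promoter of PLAT was not searched. They are RefSeq sequences on GRCh38.p14, 5′ to 3′ along the gene's own strand, and the last base is the base before the start. Capitals mark AP-1 (TGANTCA), GC box (GGGCGG) and TATA box (TATAAA) letters, searched on both strands.
PLAU, second start, chr10:73910882-73911131, plus strand: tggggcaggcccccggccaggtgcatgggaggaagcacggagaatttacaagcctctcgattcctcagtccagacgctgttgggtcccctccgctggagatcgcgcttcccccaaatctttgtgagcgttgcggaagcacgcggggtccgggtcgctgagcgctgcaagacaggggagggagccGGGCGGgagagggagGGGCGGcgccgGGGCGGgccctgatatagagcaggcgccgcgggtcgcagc
PLAUR, chr19:43670170-43670419, minus strand: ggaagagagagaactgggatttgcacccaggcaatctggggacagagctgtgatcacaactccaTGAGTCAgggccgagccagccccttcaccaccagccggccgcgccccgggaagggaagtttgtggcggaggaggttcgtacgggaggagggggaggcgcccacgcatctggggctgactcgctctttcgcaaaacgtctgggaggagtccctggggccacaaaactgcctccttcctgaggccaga
ANXA2, chr15:60397987-60398236, minus strand: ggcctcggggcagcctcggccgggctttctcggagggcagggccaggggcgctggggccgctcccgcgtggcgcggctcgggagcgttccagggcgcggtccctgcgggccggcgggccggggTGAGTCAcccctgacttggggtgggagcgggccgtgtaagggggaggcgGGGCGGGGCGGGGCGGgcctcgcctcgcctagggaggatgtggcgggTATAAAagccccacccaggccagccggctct
SERPINB2, chr18:63887455-63887704, plus strand: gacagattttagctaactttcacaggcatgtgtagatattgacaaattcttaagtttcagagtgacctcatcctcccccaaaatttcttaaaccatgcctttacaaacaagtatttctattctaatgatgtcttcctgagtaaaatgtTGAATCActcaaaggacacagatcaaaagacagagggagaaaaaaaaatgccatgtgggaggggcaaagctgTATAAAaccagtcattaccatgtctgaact

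The AP-1 letters began at -186 in PLAUR, -127 in ANXA2 and -102 in SERPINB2, counted from the start. Over windows that also include the first bases of the transcript, 7.71% of 35116 RefSeq promoters held them. The window of the second PLAU start held 3 GC boxes, as did that of ANXA2, where neighbouring boxes share 1 base. The window of the first PLAU start held none of the letters searched. Windows of SERPINE2 held 1 and 2 GC boxes, and that of PLGRKT held 1. At least 1 GC box was held by 44.95% of promoters. TATA box letters stood at -31 in ANXA2 and -30 in SERPINB2, and in 11.5% of promoters. The ETS core (CAGGAAG, 12.7% of promoters) was also searched, is not in capitals, and was found in PLAUR and SERPINB2. A match describes the letters only, and binding was not measured in these data.

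PLAU encodes urokinase and lies at chr10:73908832-73917494 of GRCh38. Its level in UM-UC-3 was 558 and 532 TPM under Scr, and 514 and 481 TPM under siPAI-1. The corresponding RT112 levels were 69.7 and 73.4 TPM, and 62.3 and 73.2 TPM. The 4 UM-UC-3 libraries all lay far above the 4 RT112 libraries, and in UM-UC-3 only 1.47% to 1.77% of expressed genes lay above PLAU. With Scr, PLAU was 7.61-fold lower in RT112 (log2 fold change -2.93, SE 0.0846, limma adjusted p = 1.69e-06).

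PLAT encodes tissue-type plasminogen activator, best known for clot lysis. UM-UC-3 held 11.9 and 11.1 TPM under Scr, and 15.1 and 11.5 TPM under siPAI-1. RT112 held 71.2 and 67.7 TPM under Scr, and 85.9 and 67.5 TPM under siPAI-1. The lines did not overlap, and the direction was opposite to that of PLAU. With Scr, PLAT was 6.01-fold higher in RT112 (log2 fold change 2.59, SE 0.161, limma adjusted p = 2.47e-05).

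The balance of the activators therefore differed between the lines. The ratio of PLAU to PLAT was 34.1 to 47.97 in the 4 UM-UC-3 libraries and 0.725 to 1.08 in the 4 RT112 libraries. PLAU made up 97.2% to 97.96% of the summed TPM of both activators in UM-UC-3, and 42.03% to 52.03% in RT112. These are transcript levels, and enzyme activity was not measured.

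**Figure D1:**
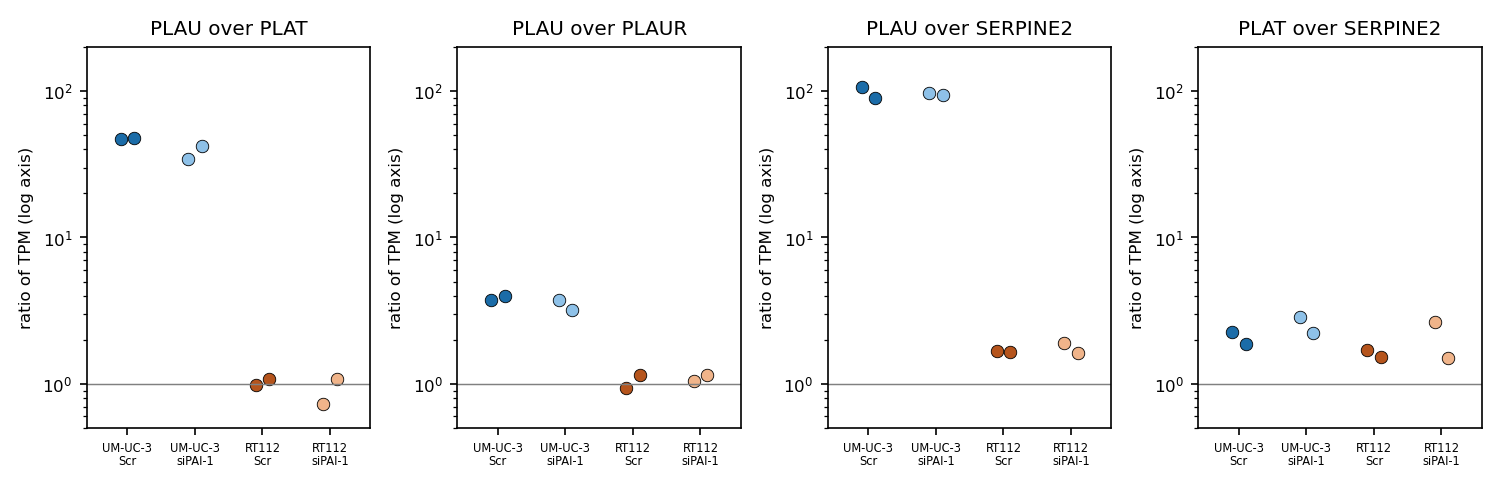
Ratios of TPM between pairs of genes in each library, on a log axis, with 1 point per library and the grey line at equal levels. PLAU exceeded PLAT 34.1-fold to 47.97-fold in UM-UC-3 and stood near the grey line in RT112, while the ratio of PLAT to SERPINE2 spanned similar values in both lines.

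PLAUR encodes the urokinase receptor, a membrane-anchored protein that focuses urokinase on the cell surface. Under Scr, UM-UC-3 had 149.6 and 133 TPM while RT112 had 74.2 and 64.2 TPM. Under siPAI-1, UM-UC-3 had 138 and 150.1 TPM while RT112 had 59.4 and 63.4 TPM. UM-UC-3 was higher in every library. With Scr the difference was 2.04-fold (log2 fold change -1.03, SE 0.0969, limma adjusted p = 0.000152), smaller than that of its ligand. The ratio of PLAU to PLAUR was 3.204 to 4.004 in UM-UC-3 and 0.939 to 1.154 in RT112.

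SERPINE2, protease nexin 1, inhibits urokinase, tissue-type activator and thrombin. The Scr libraries of UM-UC-3 gave 5.25 and 5.90 TPM, and its siPAI-1 libraries 5.27 and 5.13 TPM. For RT112 the values were 41.7 and 44.5 TPM under Scr, and 32.6 and 44.9 TPM under siPAI-1. The 2 lines did not overlap, and RT112 siPAI-1 replicate 1 was the lowest of its line. With Scr, SERPINE2 was 7.63-fold higher in RT112 (log2 fold change 2.93, SE 0.160, limma adjusted p = 1.5e-05).

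SERPINB2 encodes PAI-2, an inhibitor of urokinase that is largely kept inside cells. Under Scr the UM-UC-3 libraries had 1.97 and 1.35 TPM, and the RT112 libraries 1.51 and 1.81 TPM. Under siPAI-1 the UM-UC-3 libraries had 2.39 and 1.81 TPM, and the RT112 libraries 0.880 and 1.05 TPM, the lowest pair of the series. With Scr the lines overlapped (log2 fold change 0.02, 95% interval -0.73 to 0.76, limma adjusted p = 1). With siPAI-1, RT112 was lower by 2.05-fold (log2 fold change -1.04, SE 0.310, limma adjusted p = 0.0282). That call was lost without UM-UC-3 siPAI-1 replicate 1 (adjusted p = 0.115), RT112 siPAI-1 replicate 1 (adjusted p = 0.1) or RT112 siPAI-1 replicate 2 (adjusted p = 0.0574). The level rests on at most an estimated 43.4 to 118 reads per library. Adding 1 TPM before the log2 scale, in place of 0.1 TPM, gave a log2 fold change of -0.65 between the lines with siPAI-1.

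ANXA2 encodes annexin A2, which with S100A10 binds plasminogen and tissue-type activator at the cell surface. The UM-UC-3 levels were 5205 and 5109.7 TPM under Scr, and 5179 and 5145 TPM under siPAI-1. Those of RT112 were 2614 and 2598 TPM under Scr, and 2226 and 2444 TPM under siPAI-1. It was the highest of the 8 genes in every library, with 0.05% to 0.37% of expressed genes above it, and UM-UC-3 was higher throughout. With Scr the difference was 1.98-fold (log2 fold change -0.98, SE 0.0509, limma adjusted p = 1.19e-05). The table has no entry for the ANXA2 pseudogenes, so reads of those copies could have been counted for ANXA2. S100A10, its partner, was higher in RT112 (log2 fold change 0.59, SE 0.0787, adjusted p = 0.000827), the opposite direction.

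PLGRKT encodes a plasminogen receptor that spans the membrane. Levels of 38.7 and 36.9 TPM under Scr, and 42.1 and 39.8 TPM under siPAI-1, were found in UM-UC-3. RT112 levels were 22.03 and 19.8 TPM under Scr, and 19.9 and 19.4 TPM under siPAI-1. The lines did not overlap, with a 1.81-fold difference under Scr (log2 fold change -0.85, SE 0.0820, limma adjusted p = 0.000169). VTN encodes vitronectin, a plasma and matrix protein that binds PAI-1 and the urokinase receptor. It was listed at 0 in 6 libraries, and at 0.05 TPM in UM-UC-3 siPAI-1 replicate 2 and 0.16 TPM in RT112 siPAI-1 replicate 1, at most an estimated 5.8 reads.

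**Figure D2:**
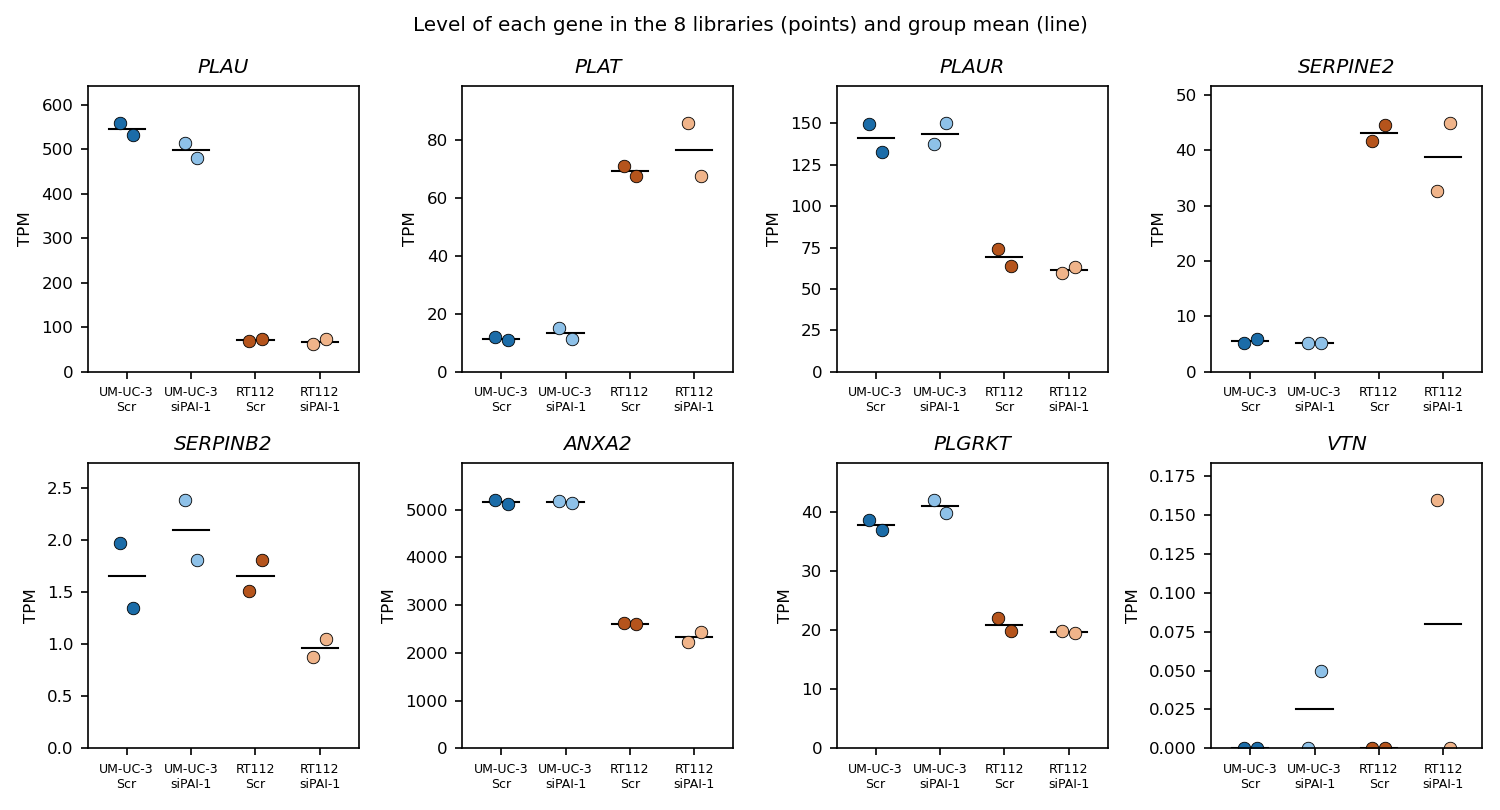
TPM of each of the 8 genes in the 8 libraries, 1 point per library with the mean of each group of 2 as a line, each panel with its own axis from 0. PLAU, PLAUR, ANXA2 and PLGRKT were higher in UM-UC-3, and PLAT and SERPINE2 were higher in RT112.

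With Scr, 6 of the 8 genes were called between the lines, 2 higher and 4 lower in RT112, beside 51.5% of all genes tested (25% higher and 26.5% lower). With siPAI-1, 7 of the 8 were called, 2 higher and 5 lower, beside 52.1% of all genes (26.1% higher and 26% lower). All 8 were tested, and the share called in these comparisons was high for genes in general. With siPAI-1 the log2 fold changes were -2.88 for PLAU, 2.53 for PLAT, -1.23 for PLAUR, 2.86 for SERPINE2, -1.15 for ANXA2 and -1.05 for PLGRKT. The Scr and siPAI-1 comparisons of the lines take their fold changes from different libraries. Both take their spread from all 8 libraries, so they are not independent.

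**Figure D3:**
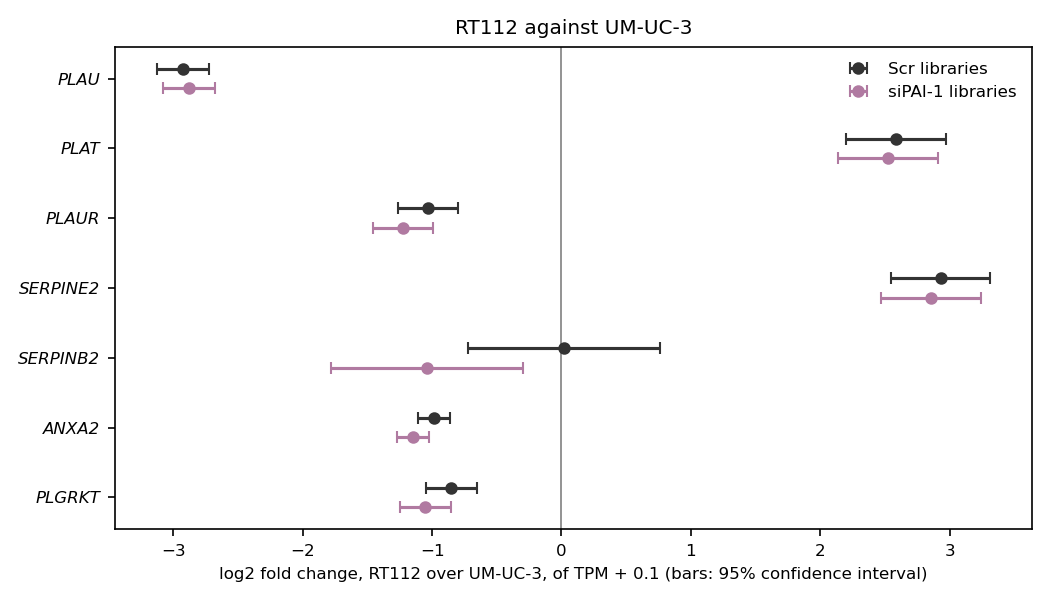
Log2 fold change of RT112 over UM-UC-3 on the log2(TPM + 0.1) scale, with 95% confidence intervals from limma, separately for the Scr and the siPAI-1 libraries. PLAU was lower by 2.93 with Scr and 2.88 with siPAI-1, and of the 7 genes plotted only SERPINB2 had an interval across 0 in the Scr libraries.

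The order of the levels also differed. In UM-UC-3 it ran from ANXA2 through PLAU, PLAUR, PLGRKT, PLAT, SERPINE2 and SERPINB2 to VTN, and no neighbours overlapped in their ranges over the 4 libraries. In RT112, ANXA2 was again first, while PLAT, PLAU and PLAUR overlapped one another, followed by SERPINE2, then PLGRKT, SERPINB2 and VTN.

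The siRNA comparison asks whether lowering PAI-1 alters the transcripts of its own pathway. No gene of the 8 was called in UM-UC-3, where 0% of the genes tested were called and 6.19% had an unadjusted p under 0.05. None was called in RT112, where 0.00986% of genes were called and 6.90% had an unadjusted p under 0.05. The 2 called genes in RT112, CH507-9B2.4 and CH507-513H4.5, are not among the 8 and are named only because the count is small. The log2 fold changes of PLAU were -0.13 (95% interval -0.34 to 0.07) in UM-UC-3 and -0.08 (-0.29 to 0.12) in RT112, and those of PLAUR were 0.03 (-0.21 to 0.26) and -0.17 (-0.40 to 0.06). Neither interval of PLAU reached 0.5 in either direction on the log2 scale.

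In RT112, ANXA2 was the only gene of the 8 with an unadjusted p under 0.05 in the main limma fit, and in UM-UC-3 there was none. This depended on the setting. For ANXA2 in RT112 the limma p was 0.133 without the trend and 0.0637 with only the 4 libraries compared. It stayed under 0.05 in the other settings that kept all libraries. For SERPINB2 in RT112 it was 0.0546 in the main fit, 0.0253 without the trend and 0.102 with only the 4 libraries compared. Both siPAI-1 libraries of RT112 lay below both of its Scr libraries for ANXA2 (log2 fold change -0.16, 95% interval -0.28 to -0.04, limma adjusted p = 0.594). The value for ANXA2 was -0.0925 without RT112 siPAI-1 replicate 1. PLAUR and SERPINB2 in RT112 and PLAU in UM-UC-3 separated in the same way, while PLGRKT in UM-UC-3 separated upwards. How often such separation held over all genes was not counted. With 2 libraries against 2, the smallest p that an exact permutation test could reach is 0.333, so these separations carry little weight. SERPINB2 had a log2 fold change of -0.72 in RT112 (95% interval -1.47 to 0.02, limma adjusted p = 0.743) and 0.33 in UM-UC-3 (-0.41 to 1.08). The difference between these effects was -1.06 (95% interval -2.11 to -0.0048, limma adjusted p = 0.734), and for the difference 0% of genes were called and 6.76% had an unadjusted p under 0.05. PLAT stood at 0.19 (-0.19 to 0.58) in UM-UC-3 and 0.13 (-0.25 to 0.52) in RT112, and SERPINE2 at -0.10 (-0.48 to 0.29) and -0.17 (-0.56 to 0.21). For PLGRKT the values were 0.11 (-0.08 to 0.31) and -0.09 (-0.28 to 0.11), and ANXA2 in UM-UC-3 had 0.0014 (-0.12 to 0.12). Without RT112 siPAI-1 replicate 1, the RT112 effects changed sign for PLAU (0.03), PLAT (-0.04) and SERPINE2 (0.06). The siRNA effects and the comparisons of the lines share the same Scr libraries.

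**Figure D4:**
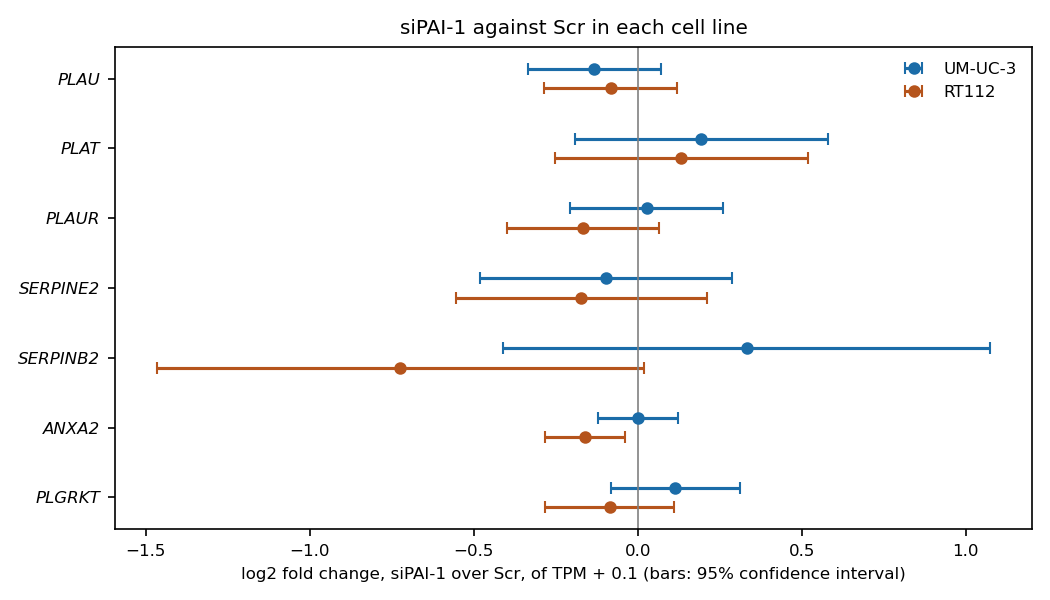
Log2 fold change of siPAI-1 over Scr on the log2(TPM + 0.1) scale in each cell line, with 95% confidence intervals from limma. The widest intervals belong to SERPINB2, which had the lowest level of the 7 genes plotted, and only ANXA2 in RT112 had an interval that did not reach 0.

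A further 5 lists of genes around the system were compared between the lines under Scr, and their counts stand beside the 51.5% of all genes called in that comparison. Of the 14 genes for the substrate and circulating regulators, 12 were tested, and 3 were higher, 2 lower and 7 not called in RT112, with a median log2 fold change of 0 beside 0 over all genes. PLG, the gene of plasminogen, was listed at 0 in 7 libraries and at 0.25 TPM in the other. F3, tissue factor, and THBD, thrombomodulin, were higher in RT112 (log2 fold changes 5.54 and 3.59, adjusted p = 2.88e-05 and 2.4e-06), and TFPI, the inhibitor of tissue factor, was lower (-0.96). SERPINF2, antiplasmin, was higher at no more than 0.88 TPM, and SERPINI1, neuroserpin, was lower.

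Of the 6 other plasminogen receptors tested, 2 were higher and 2 lower, and their median on the log2 scale was 0.0008. HMGB1 was higher (log2 fold change 0.68) as was S100A10, while ENO1, a glycolytic enzyme that also binds plasminogen, was lower (-1.48, SE 0.0471). HIST1H2BK was lower by 0.50. Of 17 uptake receptors and partners of the urokinase receptor, 5 were higher and 7 lower, with a median of -0.21. The endocytic collagen receptor MRC2 (log2 fold change -6.00) and the integrins ITGB3 and ITGA5 (-3.89) were the lowest. MRC2 had 0.37 and 0.19 TPM in the RT112 Scr libraries, so its fold depends on the pseudocount. ITGB3 was listed at 0 in both RT112 Scr libraries, beside 2.23 and 2.15 TPM in UM-UC-3, so no fold is given. SORL1 (1.27), EGFR (1.01) and CAV1 (0.55) were the highest of the called genes.

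The largest differences were among the 18 proteases and inhibitors, of which 8 were higher and 6 lower, with a median of 0.10. TMPRSS4, SPINT1 and ST14 were highest in RT112 (log2 fold changes 10.6, 10.3 and 9.42), where they had 278 to 291, 236 to 284 and 158 to 164 TPM, against at most 0.56, 0.34 and 0.27 TPM in UM-UC-3. ST14, matriptase, can activate pro-urokinase, and SPINT1 inhibits it. At such low UM-UC-3 levels the fold depends on the pseudocount. MMP9 and CTSB were lower (-3.19 and -2.54), as was MMP3, which was listed at 0 in RT112 and at 0.26 and 0.40 TPM in the UM-UC-3 Scr libraries. MMP9 had 0.21 and 0.46 TPM in the RT112 Scr libraries, so its fold also depends on the pseudocount. These differences moved with the epithelial and mesenchymal markers given above, and the part of those markers in them was not tested.

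Of 14 transcription factors, which were AP-1, ETS and NF-kB members together with SP1 and EGR1, 4 were higher and 7 lower in RT112, with a median of -0.30. ETS1, FOSL1 and JUND were the lowest (log2 fold changes -3.00, -2.09 and -1.86), and ETS2, FOS and JUNB the highest (4.80, 2.82 and 1.62). FOSL1 had 300.5 to 333 TPM in UM-UC-3 and 52.9 to 74.7 TPM in RT112. For siPAI-1, no gene of the 5 lists was called. LRP1, named here after its values were seen, which internalises complexes of urokinase, PAI-1 and their receptor, had the same direction in both lines, UM-UC-3 having 21.4 and 22.8 TPM for Scr against 28.6 and 26.6 TPM for siPAI-1, and RT112 having 27.4 and 27.0 TPM against 33.2 and 36.0 TPM. Its adjusted p-values were 0.537 and 0.487 by limma.

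**Figure D5:**
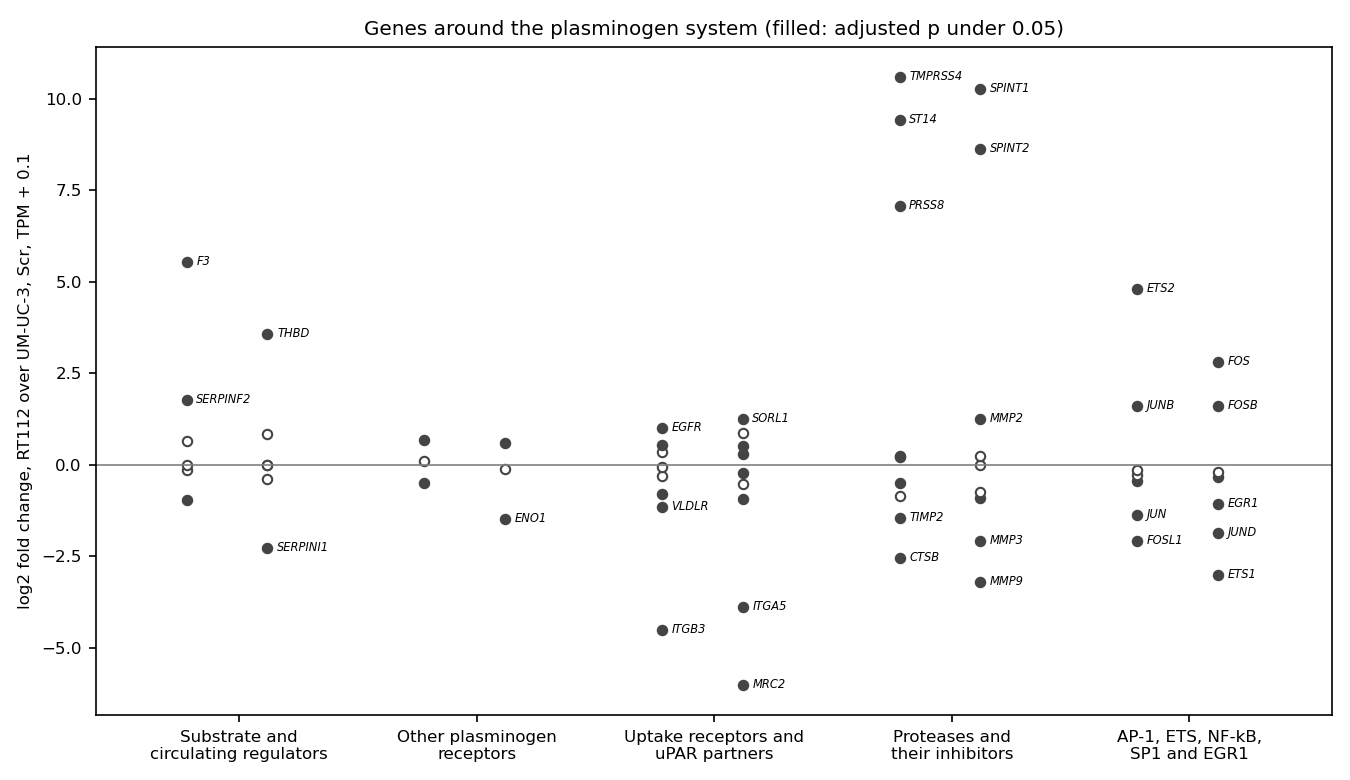
Log2 fold change of RT112 over UM-UC-3 with Scr for each tested gene of the 5 lists, with filled points for an adjusted p under 0.05 by limma and names for called genes that differ by more than 1 on the log2 scale. TMPRSS4, SPINT1, ST14, SPINT2 and PRSS8 reach up to 10.6, beyond the range of the other lists, and the points of ITGB3 and MMP3 rest on RT112 libraries listed at 0.

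The genes whose levels over the 8 libraries most resembled each of the 8 were found by the root mean square difference of centred log2 values, among 12802 other genes whose mean reached 1 TPM. For PLAU they were ELK3 (0.0919), TNFAIP8L1 (0.0992) and LGALS1 (0.101), and for PLAUR they were RECQL (0.0568), AK4 (0.0584) and ZSCAN21 (0.0588). PLAT was nearest EMP2 (0.0723), PGM2 (0.102) and CRIP2 (0.110), and SERPINE2 nearest TBC1D2 (0.0860), NOTCH1 (0.0984) and GPC4 (0.106). For SERPINB2 they were SGMS2 (0.168), CPA4 (0.177) and F2RL1 (0.187). ANXA2 was nearest IKBIP (0.0283), LMNB2 (0.0412) and ITGB1 (0.0458), and PLGRKT nearest ICE2 (0.0448), COMMD2 (0.0483) and CEP135 (0.0492). These values describe likeness over 8 libraries dominated by the difference of the lines.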

How the data were processed

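RNA from UM-UC-3 and RT112 cells was sequenced from stranded mRNA libraries. For every gene, the authors deposited a TPM and an FPKM value. The methods name cutadapt, STAR, featureCounts and hg38, and the submitters' processing notes name STAR 2.5.0 and RSEM 1.2.25, so the program that made the values is open, as is the strand setting of the counting. Whether C10orf55 (0.70 to 4.89 TPM), which overlaps PLAU, shared reads was not tested. The deposited FPKM values served only as an alternative and for the estimated depth.

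Of 27567 entries, 92 ERCC spike-ins were at 0. Genes above 0 TPM in at least 1 library (20274) were fitted with limma 3.58.1 in R 4.3.3 on log2(TPM + 0.1), with trend, as 4 group means, with two-sided tests and Benjamini-Hochberg adjustment. Folds understate changes of low genes. DESeq2, named in the methods, needs counts and was not used. The scripts were tested on simulated data. Depth was estimated from the spacing of low FPKM values. Differences between the replicates were little correlated over genes between Scr and siPAI-1 (correlation 0.0437 in UM-UC-3 and -0.0431 in RT112). The highest correlation between any groups was 0.0981. The labels do not say whether replicate numbers paired libraries, and these values cannot settle it. Named list genes had an adjusted p under 0.05, the 3 highest and 3 lowest of each list. PLG and LRP1, and SPINT2 and PRSS8 in a figure caption, were named outside this rule. For the 8 genes, positions were matched to RefSeq by symbol. The 8 genes and the lists were chosen with earlier results of these data known. The level of the siRNA's target is not reported here.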

Additional observations from a re-analysis of the deposited data

How the results depend on the processing

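Of 632 alternative values, those between the lines for PLAU, PLAT, PLAUR, SERPINE2, ANXA2 and PLGRKT kept their direction and call, those of SERPINB2 did not, and VTN was not recomputed. The SERPINB2 value with Scr was -0.0122 with FPKM in place of TPM, and -0.2393 to 0.2743 with a library left out, and with siPAI-1 its call was lost as given above. With a pseudocount of 1 TPM, SERPINB2 was -0.6527 between the lines with siPAI-1, and -0.436 for siPAI-1 in RT112. With FPKM, ANXA2 for siPAI-1 in UM-UC-3 was -0.004. With a library left out, the siPAI-1 effects that changed sign spanned, in UM-UC-3, -0.0584 to 0.1126 for PLAUR, -0.0017 to 0.3904 for PLAT and -0.0119 to 0.0147 for ANXA2, and in RT112, -0.1992 to 0.0336 for PLAU, -0.0403 to 0.3067 for PLAT and -0.4008 to 0.0578 for SERPINE2. Others kept their sign but moved by over 1.5 times: in UM-UC-3, SERPINB2 spanned 0.0752 to 0.5888, SERPINE2 -0.1791 to -0.0137, PLAU -0.1804 to -0.0845 and PLGRKT 0.0747 to 0.1539, and in RT112, ANXA2 spanned -0.2275 to -0.0925, PLAUR -0.2721 to -0.0636 and PLGRKT -0.1617 to -0.0092. The differences of effects that changed sign spanned -0.0667 to 0.166 for PLAU, -0.2572 to 0.1349 for PLAT and -0.3045 to 0.1542 for SERPINE2. The cause was not tested.

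Counts over all genes moved as follows. For siPAI-1 in UM-UC-3, 0 genes became 3 with a pseudocount of 0.01 TPM (DENND2D, RP11-293I14.2 and CTD-2325M2.1) and 10 without the trend, and 0 to 150 with a library left out. In RT112, 2 became 0 with a pseudocount of 1 TPM, 1 with 0.01 TPM (CTD-2066L21.3), 0 where the mean had to reach 1 TPM, 23 without the trend, 0 with the replicate block, 0 with only the 4 libraries compared, and 0 to 301 with a library left out. The difference of effects gave 7 without the trend and 0 to 123 with a library left out. The genes named here were chosen after their values were seen. Whether the replicate numbers paired libraries is not known. The replicate block changed no call of the 7 genes it was run for, which leave out VTN. A left-out library leaves a group with 1 library, which is assumed to vary like the others.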
